A study of Rattus norvegicus with 24 samples.

Results

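Hepatocytes make most of the proteins that circulate in blood plasma. The transcripts of 48 of these proteins were followed in livers from lean and from obese Zucker rats that ate ecdysterone or did not. They were taken by gene symbol from a list of 50 clotting, complement and acute phase proteins, out of 23188 transcripts on the array. Cfb and Itih2 matched no row and were not analysed here. By role, 11 of the 48 were clotting factors, 6 were clotting inhibitors or belonged to fibrinolysis, 9 were complement components, 5 were complement regulators, 12 were positive acute phase proteins, 3 were negative acute phase carriers and 2 were other plasma proteins. A2m, Mbl2 and Serpina3n each had a second probe set, and the brighter one was used.

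Liver RNA of 24 male rats, which were 25 weeks old when a feeding period of 4 weeks began, was hybridised to Clariom S rat arrays, 1 rat per array and 6 rats per group. Group LC held lean, heterozygous (fa/+) Zucker rats on a basal diet, and group LE held lean fa/+ rats whose feed also contained ecdysterone at 0.5 g per kg. Groups OC and OE held obese, homozygous (fa/fa, Crl:ZUC-Leprfa) rats, of which OC ate the basal diet and OE the diet with ecdysterone at 0.5 g per kg. The fa allele changes the leptin receptor, and all 24 rats carried at least 1 copy of it, so that the lean rats were not free of the allele. Ecdysterone is a plant and insect steroid. The rats were housed in pairs and were not fasted before sampling, and which rats shared a cage was not given in the labels, so p-values treat each rat as independent.

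Clotting runs as a cascade of proteases, from factor XII, factor XI and prekallikrein at the contact start to thrombin, which turns fibrinogen into fibrin. Antithrombin, protein C and its cofactor protein S hold the cascade back, and plasmin dissolves the clot. Complement is a second protease cascade, started by lectins such as Mbl2 or by the C1 complex, that converges on C3 and ends in a membrane pore built from C5 to C9. In an acute phase response, cytokines and glucocorticoids acting on the hepatocyte raise positive acute phase proteins and lower negative ones such as albumin and transthyretin. In the rat, A2m is a major positive acute phase protein and Orm1 is strongly induced by glucocorticoids, whereas Crp is made in quantity without inflammation.

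All values are log2 signals as deposited. They compare rats for 1 transcript and not 1 transcript with another. The median mean signal of the 48 was 17.3, against 6.55 over all 23188 transcripts. Only 3 of the 48 (F7, A2m and Lcn2) had a mean signal under 10, and 12 had one of 19 or more, as did 46 transcripts in all, with 19.93 as the highest value on any array. At that upper end the values lay very close together: the median SD between rats of a group was 0.08 for these 12 and 0.2 for the other members. In the 6 OC rats Hpx and Alb both read 19.92, 19.92, 19.92, 19.92, 19.85 and 19.89. Whether the probes of the 12 could still register more RNA was not tested. A level signal among them thus need not mean a level amount of RNA.

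The arrays were alike in scale, with medians from 6.51 to 6.61. The summed signal of 11 hepatocyte markers outside the 48 ran from 20.7 to 21.26 across all rats, so the hepatocyte markers were present in every liver, and its median was 21.16 in LC, 21.12 in LE, 21.07 in OC and 20.96 in OE. For pooled genotype 4 of the 11 passed as lower (Cps1 by 0.63, Asgr1 by 0.94, Tat by 0.9 and Hpd by 0.88 on the log2 scale) and Apoa1 as higher by 1.08. Over all transcripts 2.95% passed as lower and 3.56% as higher. The summed signal of 10 stellate cell markers was 13.61 to 14.18 in the lean groups and 14.45 to 15.43 in the obese groups. In OC vs. LC 8 of the 10 had a difference above 0 and 5 passed as higher, where 1.44% of all transcripts did. The summed signal of 7 erythroid markers was 12.65 to 14.65 in the lean groups and 13.36 to 15.34 in the obese groups. All 7 had a difference above 0 in OC vs. LC, and 5 of the 7 passed. None of the 10 macrophage, 8 neutrophil, 8 endothelial, 6 bile duct or 6 lymphocyte markers passed the test in OC vs. LC. For pooled genotype the neutrophil marker S100a9 rose by 0.69 (limma adjusted p = 0.0112) and the endothelial marker Cdh5 by 0.45 (adjusted p = 0.0161), each 1 of 8. The stellate cell and erythroid markers and some of the hepatocyte markers thus moved with genotype, as did the results below, and their part in those results was not tested. In bulk tissue, fewer cells of a type and less RNA per cell cannot be told apart.

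Genotype changed a small number of these transcripts, and ecdysterone none that passed the test. In the obese groups Orm1, which encodes the plasma carrier orosomucoid, was higher, and F11 (factor XI), Pros1 (protein S) and Proc (protein C) were lower. With limma and Benjamini-Hochberg adjustment over all transcripts, 3 of 48 members (6.25%) passed an adjusted p of 0.05 in OC vs. LC, where 2.59% of all transcripts did. Of these, 1 rose, where 1.44% of all transcripts rose, and 2 fell, where 1.15% fell. In OE vs. LE 3 of 48 passed, where the share of all transcripts was 2.11%, and again 1 rose (1.07% of all transcripts) and 2 fell (1.04%). When genotype was pooled over both diets 9 of 48 (18.8%) passed, where the share of all transcripts was 6.52%. Of these 9, Orm1 and Itih4 rose in obese rats (2 of 48, where 3.56% of all transcripts rose), and F11, Proc, Pros1, C6, C8b, Mbl2 and Crp fell (7 of 48, where 2.95% fell). The members were brighter than most transcripts. Limma was therefore also refitted without signals below the median, with adjustment over the remaining 11594 transcripts only. In that fit 4 of 47 members (8.51%) passed in OC vs. LC, where 5.96% of transcripts did. In OE vs. LE 6 of 47 (12.8%) passed there, where 5.15% did, and for pooled genotype 12 of 47 (25.5%), where 13.6% did. These calls are of a separate fit and not a part of the calls above. The plot of these 9 transcripts shows each rat.

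**Figure D1:**
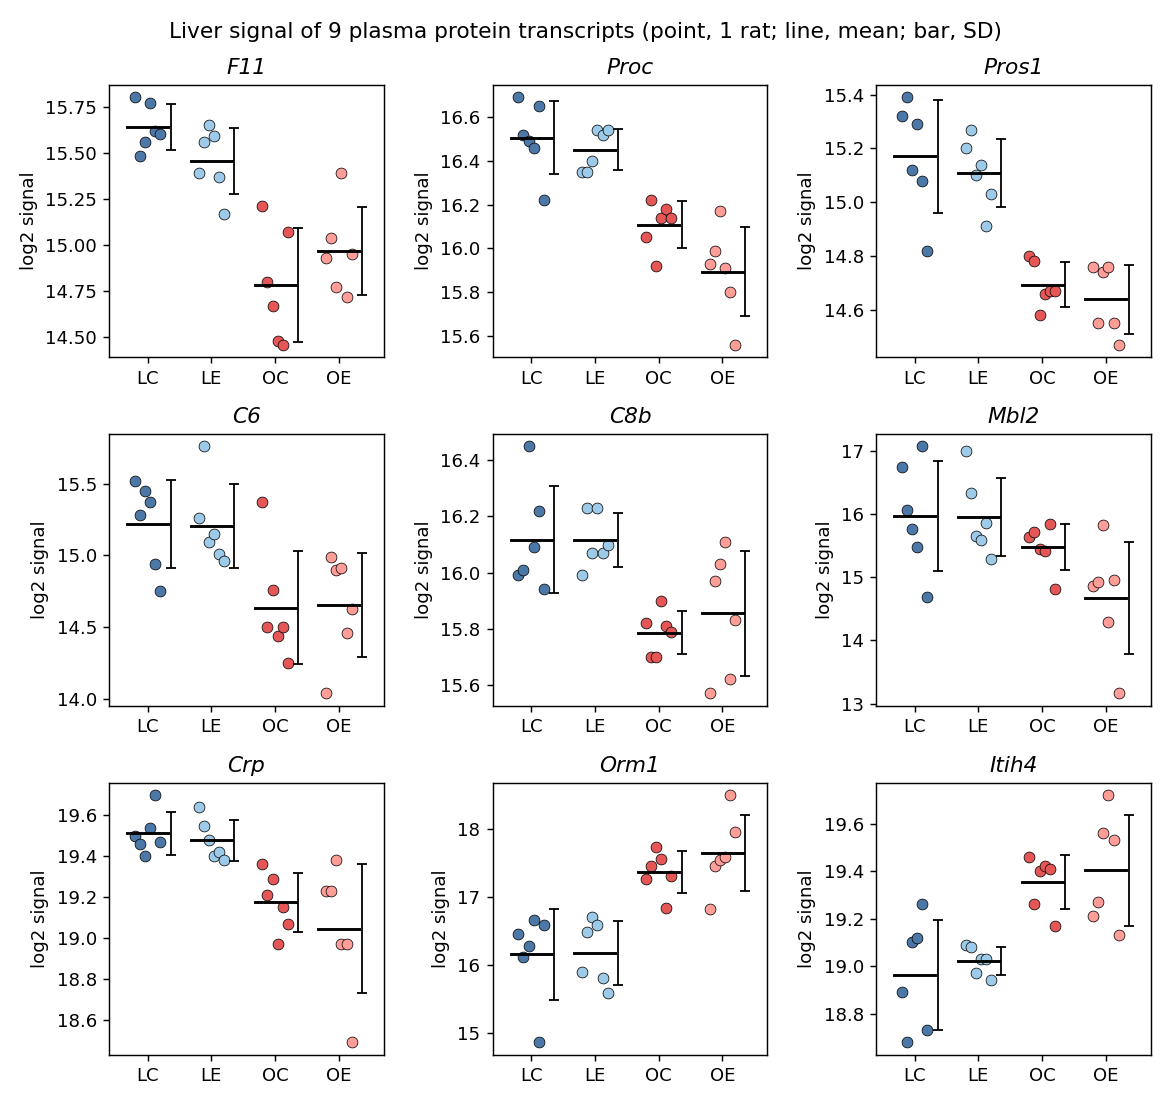
Log2 signal of the 9 plasma protein transcripts with an adjusted p under 0.05 for genotype pooled over diets, by group (x axis), with 1 point per rat, the group mean as a line and the SD as a bar. For Orm1 the 12 obese rats lie at 16.82 or higher and the 12 lean rats at 16.71 or lower, and for Pros1 the obese rats lie at 14.8 or lower and the lean rats at 14.82 or higher.

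The 250 bases before the start that the RefSeq promoter table uses are shown for the 4 genes that passed in a comparison of 6 against 6 rats, because these genes carry the genotype result. The sequences are from RefSeq on GRCr8, 5′ to 3′ on the strand of the gene. Capitals mark letters that match 1 of 4 motifs searched on both strands: HNF1 (GTTAAT), C/EBP (TTGCNNAA), STAT (TTCNNNGAA) and the glucocorticoid receptor (GAACA and TGTNC, 3 bases apart). They lie at chr5:81788259-81788508 (plus strand, Orm1), chr16:53720252-53720501 (plus, F11), chr11:13677049-13677298 (plus, Pros1) and chr18:24048942-24049191 (minus, Proc). The Pros1 window lies wholly inside the annotated span of the gene, as do 120 of the 250 bases of the Proc window, while those of Orm1 and F11 lie before it.
Orm1: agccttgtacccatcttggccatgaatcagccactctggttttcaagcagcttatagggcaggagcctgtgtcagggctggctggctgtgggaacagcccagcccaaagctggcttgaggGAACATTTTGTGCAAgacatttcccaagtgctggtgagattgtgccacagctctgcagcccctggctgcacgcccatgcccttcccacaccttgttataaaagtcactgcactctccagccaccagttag
F11: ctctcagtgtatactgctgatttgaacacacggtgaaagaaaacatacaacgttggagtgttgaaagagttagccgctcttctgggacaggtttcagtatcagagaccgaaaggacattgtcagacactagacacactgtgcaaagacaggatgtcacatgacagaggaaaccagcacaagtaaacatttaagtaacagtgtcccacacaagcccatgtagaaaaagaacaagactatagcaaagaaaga
Pros1: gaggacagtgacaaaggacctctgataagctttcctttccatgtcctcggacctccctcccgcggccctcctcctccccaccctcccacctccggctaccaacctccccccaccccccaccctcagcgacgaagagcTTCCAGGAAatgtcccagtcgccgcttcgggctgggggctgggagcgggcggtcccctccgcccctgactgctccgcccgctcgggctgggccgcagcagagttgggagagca
Proc: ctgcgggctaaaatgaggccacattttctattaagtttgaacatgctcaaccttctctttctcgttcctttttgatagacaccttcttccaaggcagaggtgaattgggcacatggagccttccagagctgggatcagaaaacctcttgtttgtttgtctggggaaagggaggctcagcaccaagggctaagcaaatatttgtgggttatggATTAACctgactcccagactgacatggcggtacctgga

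The Orm1 window held a match to the glucocorticoid receptor motif from -130 to -118 and one to the C/EBP motif from -123 to -116, counted from the start in that table, and these overlap. Of 33469 promoter windows of the same length, 74 (0.221%) held the glucocorticoid receptor letters, and Orm1 was 1 of 43 members with a window that did. Proc held the HNF1 letters from -38 to -33 and Pros1 the STAT letters from -113 to -105, while none of the 4 motifs occurred in the F11 window. The C/EBP letters were present in 16 of the 43 members (37.2%) and in 9.22% of all windows, the HNF1 letters in 12 (27.9%) and in 6.45%, and the STAT letters in 9 (20.9%) and in 7.67%. A match of letters is a description and not a binding site.

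Among the clotting factors, F11 was the 1 of 11 that passed in OC vs. LC, and none passed in OE vs. LE. F11 encodes factor XI, the protease that activates factor IX. Its signal in LC ran from 15.48 over a median of 15.61 to 15.8, and in LE from 15.17 over 15.47 to 15.65. In OC it ran from 14.46 over 14.73 to 15.21, and in OE from 14.72 over 14.94 to 15.39. All 6 OC rats lay below all 6 LC rats, and 5 of 6 OE rats lay below all 6 LE rats. F11 was lower by 1.81-fold in OC than in LC (log2 difference -0.86, SE 0.14, limma adjusted p = 0.000417). In OE vs. LE its log2 difference was -0.49 with an adjusted p of 0.0769 by limma.

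F11 lies on chromosome 16 at chr16:53720502-53741547 in GRCr8, 5.9 kb from Klkb1, which encodes prekallikrein and is outside the 48. Klkb1 also fell, from 13.62 ± 0.25 (SD, n = 6) in LC to 13 ± 0.14 in OC, by 0.61 on the log2 scale (SE 0.16, limma adjusted p = 0.0318). Its difference in OE vs. LE was -0.42 and did not pass (limma adjusted p = 0.223). The other contact protease, F12, differed by 0.03 (95% confidence interval -0.23 to 0.29) in OC vs. LC and by 0.32 (0.06 to 0.57) in OE vs. LE, and did not pass (limma adjusted p = 0.966 and 0.255).

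The fibrinogen chains, which lie side by side on chromosome 2, did not pass in any comparison. Fga had a median of 19.53 in LC and 19.3 in OC, and the groups met at 19.33 without crossing (log2 difference -0.26, limma adjusted p = 0.325). Fgb had medians of 19.09 in LC, 19.12 in LE, 18.87 in OC and 19.1 in OE. The remaining factors, which include thrombin (F2) and the vitamin K dependent F7, F9 and F10, had confidence intervals that lay within -0.62 and 0.33 in both comparisons. The median difference of the 11 factors was -0.15 in OC vs. LC and -0.04 in OE vs. LE, against -0.004 over all transcripts in each.

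Of the 6 inhibitors and fibrinolysis proteins, Proc and Pros1 fell, and these are the enzyme and the cofactor of 1 anticoagulant pathway. Pros1 ran from 14.82 over a median of 15.2 to 15.39 in LC and from 14.91 over 15.12 to 15.27 in LE. It ran from 14.58 over 14.67 to 14.8 in OC and from 14.47 over 14.65 to 14.76 in OE. No obese rat reached the lowest lean rat. The log2 difference was -0.47 in both OC vs. LC and OE vs. LE (SE 0.12, 1.39-fold lower), with limma adjusted p of 0.023 and 0.0298. Pros1 no longer passed in OC vs. LC when LC rat 2, LC rat 4 or OC rat 15 was left out, or in OE vs. LE without LE rat 7, 8 or 10 or OE rat 20, 23 or 24, and its log2 differences ran from -0.54 to -0.43 over all rats left out in turn. It did not pass either when limma was fitted to the 2 groups alone (adjusted p = 0.0813 in OC vs. LC and 0.0882 in OE vs. LE), or in OE vs. LE after quantile normalisation (-0.35, adjusted p = 0.111).

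Proc ran from 16.22 over a median of 16.51 to 16.69 in LC and from 16.35 over 16.46 to 16.54 in LE. It ran from 15.92 over 16.14 to 16.22 in OC and from 15.56 over 15.92 to 16.17 in OE. OE and LE did not overlap, and OC and LC met only at 16.22. Proc fell by 0.56 on the log2 scale in OE vs. LE (SE 0.12, 1.47-fold lower, limma adjusted p = 0.00842) and its log2 difference in OC vs. LC was -0.4 (adjusted p = 0.0793).

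Plg, the precursor of plasmin, lay at 18.43 to 18.72 in LC and at 18.29 to 18.4 in OC. These 2 groups did not overlap, but the log2 difference of -0.24 did not pass (limma adjusted p = 0.327). Serpinc1 (antithrombin), Serpind1 (heparin cofactor II) and Serpinf2 (antiplasmin) had differences whose intervals included 0 in both comparisons.

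**Figure D2:**
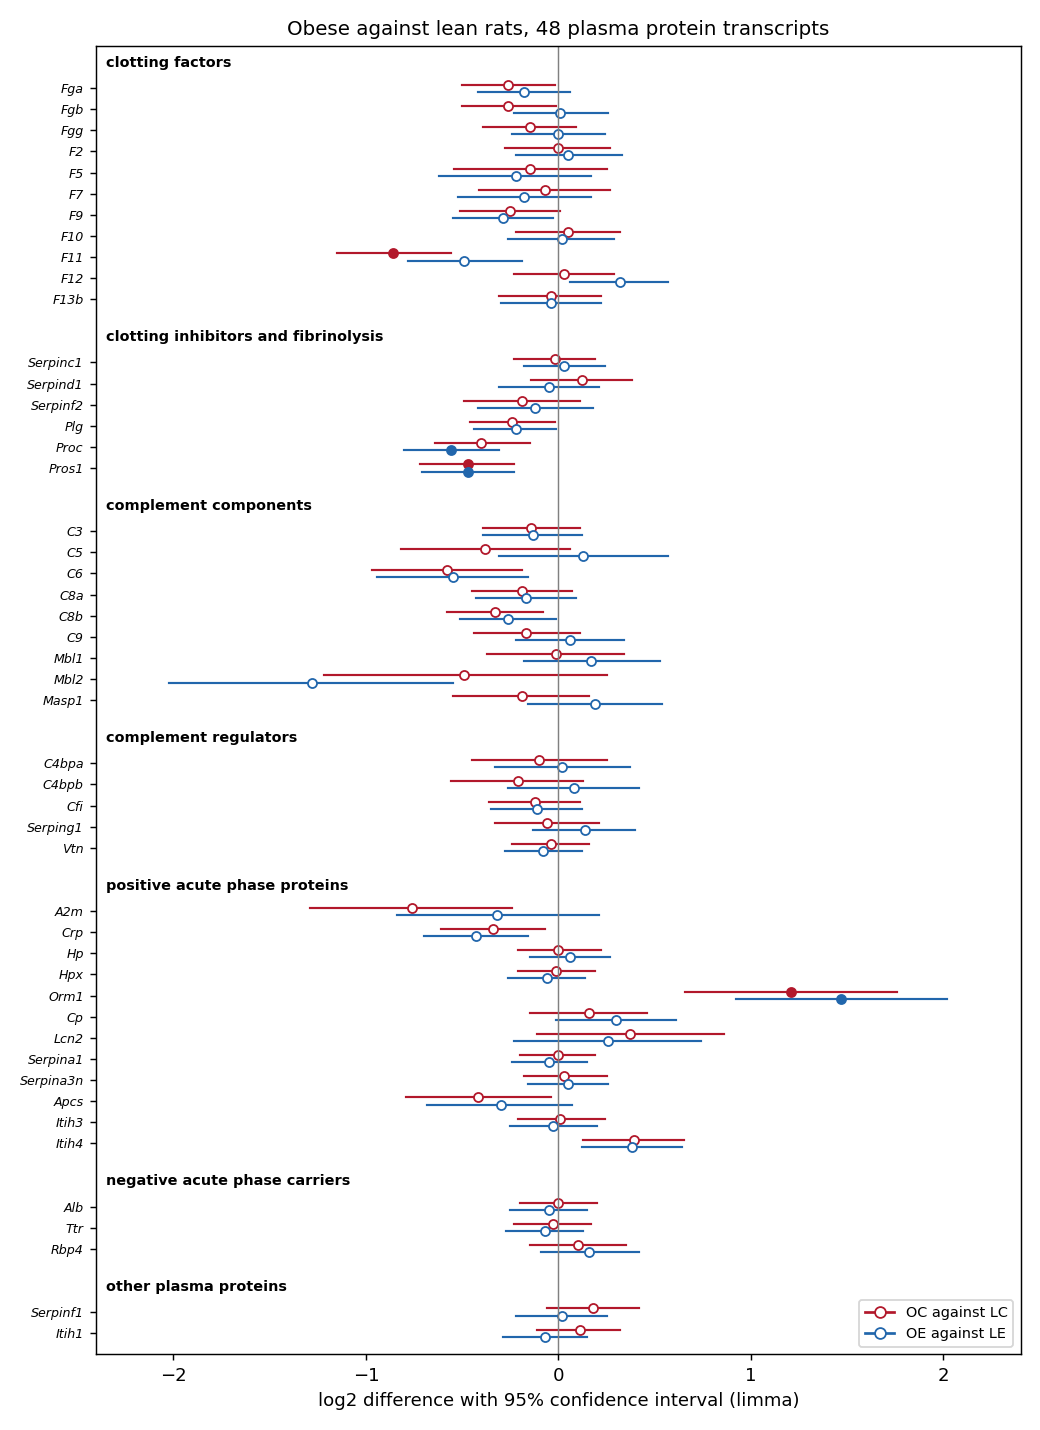
Log2 difference of obese against lean rats for the 48 transcripts, grouped by role, with OC against LC in red and OE against LE in blue. Points are limma estimates, bars are 95% confidence intervals and filled points have an adjusted p under 0.05; Orm1 lies farthest to the right, at 1.21 and 1.47, and F11 and Mbl2 lie farthest to the left, at -0.86 and -1.28.

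Among the 9 complement components none passed within a diet, and C6, C8b and Mbl2 fell when the diets were pooled. C6 and C8b encode parts of the membrane pore. C6 had medians of 15.33 in LC, 15.12 in LE, 14.5 in OC and 14.77 in OE, and its pooled log2 difference was -0.57 (SE 0.14, limma adjusted p = 0.00774). OC rat 13, at 15.37, stood with the lean rats. C8b had medians of 16.05 in LC, 16.08 in LE, 15.8 in OC and 15.9 in OE. The pooled difference of C8b was -0.3 (SE 0.09, limma adjusted p = 0.035). C8b was lost in 8 of the 24 fits that left out 1 rat and after quantile normalisation, which gave a log2 difference of -0.21 and an adjusted p of 0.175.

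Mbl2, a lectin that starts complement on microbial sugars, varied more between rats of a group than any other member, with an SD of 0.72 pooled within the groups. It ran from 14.68 over a median of 15.91 to 17.07 in LC and from 15.28 over 15.76 to 16.99 in LE. It ran from 14.81 over 15.54 to 15.84 in OC and from 13.16 over 14.89 to 15.82 in OE. All groups overlapped. The pooled log2 difference was -0.88 (SE 0.25, limma adjusted p = 0.0313), and the second Mbl2 probe set gave -0.81 (SE 0.24, adjusted p = 0.0353). Without LC rat 1 or 5, LE rat 7 or 8, OC rat 18, or OE rat 22 or 24 Mbl2 did not pass, with log2 differences between -1.01 and -0.73 over all rats left out in turn. It did not pass with a variance trend and robust moderation either (limma adjusted p = 0.0756). C3, on which all complement routes converge, differed by -0.14 in OC vs. LC and by -0.13 in OE vs. LE, with intervals within -0.39 and 0.12.

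None of the 5 complement regulators passed in any comparison. They are C4bpa and C4bpb (the chains of C4b-binding protein), the protease Cfi, the C1 inhibitor Serping1 and vitronectin (Vtn). Their median difference was -0.1 in OC vs. LC and 0.02 in OE vs. LE, and C4bpb, with the largest difference in OC vs. LC, stood at -0.21 (95% confidence interval -0.56 to 0.13).

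The 12 positive acute phase proteins did not move as 1 group. In OC vs. LC 7 had a difference above 0 and 5 below, and the median was 0.01. Orm1 rose in both comparisons. It ran from 14.86 over a median of 16.36 to 16.66 in LC and from 15.59 over 16.19 to 16.71 in LE. It ran from 16.84 over 17.39 to 17.74 in OC and from 16.82 over 17.56 to 18.5 in OE. Every obese rat lay above every lean rat on either diet. Orm1 was 2.31-fold higher in OC than in LC (log2 difference 1.21, SE 0.27, limma adjusted p = 0.00847) and 2.76-fold higher in OE than in LE (1.47, SE 0.27, adjusted p = 0.00167). LC rat 5, at 14.86, lay below the next LC rat at 16.11, and without it the log2 difference in OC vs. LC was 0.95 (adjusted p = 0.0249). By the methods' t-test on the same values, adjusted over all transcripts, Orm1 did not pass in either comparison (adjusted p = 0.108 and 0.0709).

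Itih4, an inter-alpha-trypsin inhibitor heavy chain, rose and Crp fell when the diets were pooled. Itih4 had medians of 19 in LC, 19.03 in LE, 19.41 in OC and 19.4 in OE, and the pooled log2 difference was 0.38 (SE 0.09, limma adjusted p = 0.00705). Crp, a pentraxin that binds microbial and damaged membranes, had medians of 19.48 in LC, 19.45 in LE, 19.18 in OC and 19.1 in OE. No obese rat, the highest at 19.38, lay above a lean rat of the same diet, and the pooled difference of Crp was -0.38 (SE 0.09, limma adjusted p = 0.00866). Apcs, the other short pentraxin, had log2 differences of -0.42 in OC vs. LC and -0.3 in OE vs. LE and did not pass (limma adjusted p = 0.305 and 0.536).

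A2m had its lowest and highest rat at 8.33 and 9.45 in LC, and at 7.69 and 8.19 in OC. On the ecdysterone diet the ends were 7.84 and 9.85 for LE, and 7.73 and 9.19 for OE. OC and LC did not overlap, but OE and LE did. The log2 difference was -0.76 (SE 0.26, limma adjusted p = 0.131) in OC vs. LC and -0.32 (adjusted p = 0.687) in OE vs. LE, and the second A2m probe set gave -0.61 and -0.19. Hp (haptoglobin) had log2 differences of 0 and 0.06 in the 2 comparisons with intervals from -0.21 to 0.27. Lcn2 had a median of 4.7 in LC and 5.11 in OC, and 21.5% of all transcripts had a lower mean signal. Hpx (hemopexin), Serpina1, Serpina3n, Itih3 and Cp (ceruloplasmin) did not pass in either comparison.

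The signals of the negative acute phase carriers differed little between the groups. Albumin (Alb) had medians of 19.91 in LC, 19.92 in LE, 19.92 in OC and 19.87 in OE. Transthyretin (Ttr), which carries thyroid hormone, had medians of 19.78, 19.79, 19.75 and 19.71 in the same order. The intervals of Alb and Ttr lay within -0.27 and 0.2 in both genotype comparisons, with the limit on the brightest signals given above. Rbp4, the retinol carrier, had log2 differences of 0.1 (-0.15 to 0.35) and 0.16 (-0.09 to 0.42). Of the other plasma proteins, Serpinf1 and Itih1 had differences of 0.18 and 0.11 in OC vs. LC and neither passed.

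Over all 48, the median log2 difference was -0.09 in OC vs. LC and -0.05 in OE vs. LE, and 35 of 48 were below 0 in OC vs. LC and 28 of 48 in OE vs. LE, where 50.8% of all transcripts were below 0 in each. The 2 comparisons have no rats in common. The difference had the same sign in both for 35 of 48 members (72.9%) and for 61.3% of all transcripts. Groups did not overlap in OC vs. LC for 8 of 48 members (Fga, F11, Plg, Pros1, C8b, A2m, Crp and Orm1), where 2.02% of all transcripts did not overlap, and in OE vs. LE for 6 of 48 (Proc, Pros1, Vtn, Crp, Orm1 and Itih4), where the share was 1.76%. For Pros1, Crp and Orm1 (3 of 48) the 12 obese rats did not overlap the 12 lean rats at all, where 0.522% of all transcripts did not. Where 6 and 6 rats do not overlap, the two-sided exact permutation p of the difference of means is always 0.00216. This is the smallest that the splits of 12 rats allow, so it adds nothing to the lack of overlap. Fga, Plg, C8b, A2m and Crp did not pass the adjustment over all transcripts in OC vs. LC. By the criteria of a fold beyond 1.3 with an unadjusted p under 0.05, 8 of 48 members passed in OC vs. LC (10.5% of all transcripts) and 8 of 48 in OE vs. LE (10.2% of all transcripts).

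**Figure D3:**
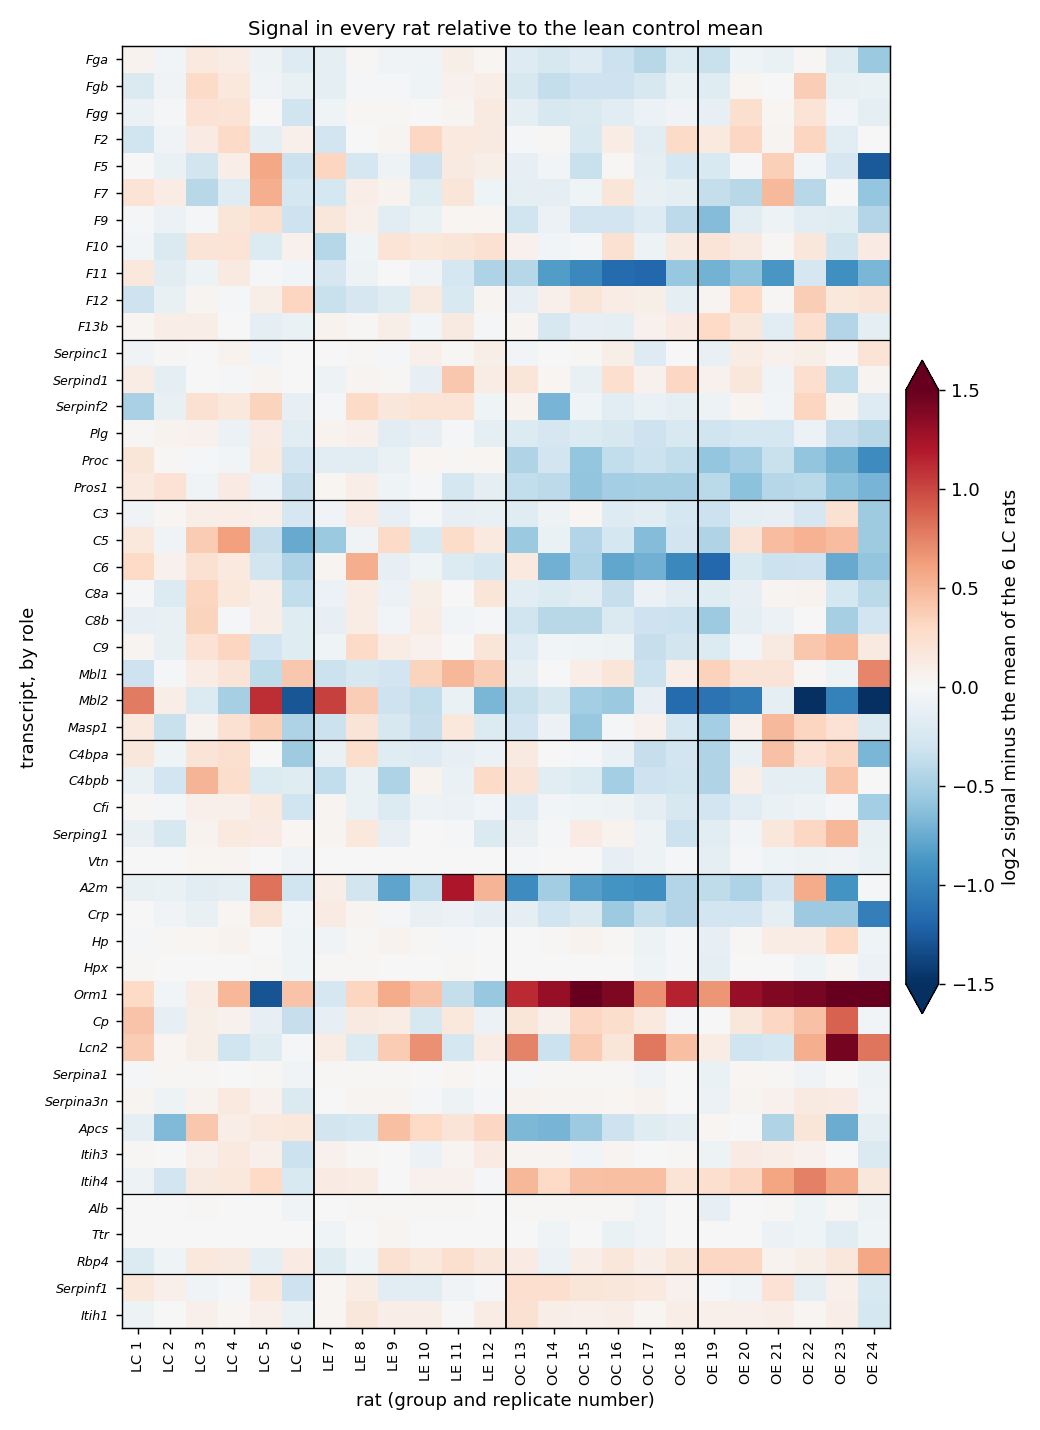
Signal of each of the 48 transcripts (rows, by role) in each of the 24 rats (columns, by group), as the log2 difference from the mean of the 6 LC rats, with red for higher and blue for lower values and colours capped at 1.5. The Orm1 row is red in all 12 obese rats, and the Mbl2 row varies most within groups.

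Genes of the same cascades outside the 48 were also examined. Of 21 other clotting and fibrinolysis genes, 2 passed as lower and 2 as higher in OC vs. LC. The shares of all transcripts were 1.15% and 1.44%. In OE vs. LE 1 passed as lower and 1 as higher, where 1.04% and 1.07% of all transcripts did. Habp2, a plasma protease that acts on factor VII, fell from 14.22 ± 0.49 (SD, n = 6) in LC to 12.59 ± 0.28 in OC, by 1.63 on the log2 scale (SE 0.25, limma adjusted p = 0.000101), and by 1.43 in OE vs. LE. Tfpi, the inhibitor of the tissue factor pathway, rose by 0.82 (SE 0.16, limma adjusted p = 0.0031), and Kng1, kininogen, by 0.5 (SE 0.13, adjusted p = 0.0301) in OC vs. LC. Kng1 rose by 0.58 in OE vs. LE (limma adjusted p = 0.0132), while Tfpi stood at 0.48 and did not pass (adjusted p = 0.15).

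Of 24 other complement genes 2 passed as lower in OC vs. LC and none as higher. The shares of all transcripts were 1.15% and 1.44%. Passing or not, 14 of the 24 had a difference above 0 and 10 below. The 2 that passed are C1r and C1s, the paired proteases of the C1 complex, which are neighbours on chromosome 4. C1r ran from 14.11 to 14.62 in LC and from 12.93 to 13.74 in OC, and fell by 1.08 on the log2 scale (SE 0.18, limma adjusted p = 0.00052). C1s fell by 1.35 (SE 0.29, limma adjusted p = 0.00589). C1r also fell by 0.87 in OE vs. LE (limma adjusted p = 0.00703), and C1s stood at -0.73 and did not pass (adjusted p = 0.249). Of 25 other acute phase and plasma protein genes, 3 passed as lower and none as higher in OC vs. LC. The shares of all transcripts were again 1.15% and 1.44%. The 3 were Hamp (hepcidin, the iron hormone), lower by 1.34, the serpin Serpina3c by 1.09 and Agt (angiotensinogen) by 0.87. In OE vs. LE 2 of the 25 passed as lower and 1 as higher, where 1.04% and 1.07% of all transcripts did. Agt was lower by 0.89 (limma adjusted p = 0.00231) and Igfals, a carrier of insulin-like growth factors, by 0.86 (adjusted p = 0.0442). The interleukin 1 receptor antagonist Il1rn was higher by 1.08 (limma adjusted p = 0.00132). Hamp stood at -0.8 and Serpina3c at -0.73 there and did not pass (limma adjusted p = 0.258 and 0.0935).

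None of 17 interleukin 6 and interleukin 1 signalling genes passed in OC vs. LC, where their smallest limma adjusted p was 0.142, or in OE vs. LE. None of 4 genes of the vitamin K cycle, which some of the factors and inhibitors above need, passed. All 4 had a difference above 0 in both comparisons, with medians of 0.3 in OC vs. LC and 0.12 in OE vs. LE. Of 13 liver transcription factors 3 passed as lower in OC vs. LC, where 1.15% of all transcripts did. Nr3c1, the glucocorticoid receptor, ran from 12.19 over a median of 12.93 to 13.11 in LC and from 11.47 over 11.62 to 12.02 in OC. It fell by 1.11 on the log2 scale in OC vs. LC (SE 0.18, limma adjusted p = 0.000213) and by 0.8 in OE vs. LE (adjusted p = 0.0101). Onecut1 (HNF6) fell by 2.98 (SE 0.64, limma adjusted p = 0.00589) and Foxa1 by 1.33 (SE 0.28, adjusted p = 0.00422) in OC vs. LC. Onecut1 stood at -1.08 and Foxa1 at -0.57 in OE vs. LE and neither passed (limma adjusted p = 0.523 and 0.403). There 2 of the 13 passed as lower, where 1.04% of all transcripts did. They were Nr3c1 and Foxa3, the latter lower by 1.26 (limma adjusted p = 0.0192).

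Ecdysterone changed none of the 48 transcripts past the threshold. In LE vs. LC none of 48 had a limma adjusted p under 0.05, where 0% of all transcripts did, and none had an unadjusted p under 0.05, where 3.51% of all transcripts did. The 48 log2 differences ran from -0.18 to 0.13 with a median of 0, and 24 lay above and 24 below 0. All 48 confidence intervals lay within -0.75 and 0.72. F11 was at the low end, with -0.18 (95% confidence interval -0.48 to 0.11).

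In OE vs. OC none of 48 passed the adjusted threshold, where 0% of all transcripts did, and 4 of 48 (8.33%) had an unadjusted p under 0.05, where 5.7% of all transcripts did. These were Fgb, C5, C9 and Mbl2. Fgb had a log2 difference of 0.25 (SE 0.12, limma adjusted p = 0.871, two-sided exact permutation p = 0.00866). The exact p-values given here are not adjusted for the number of members. C9, the last part of the membrane pore, lay at 17.63 to 17.94 in OC and 17.77 to 18.48 in OE, with a log2 difference of 0.32 (SE 0.14, limma adjusted p = 0.858, exact permutation p = 0.0195, two-sided). C5, which starts the pore, lay at 13.14 to 13.69 in OC and 13.26 to 14.31 in OE. Its difference was 0.49 (SE 0.22, limma adjusted p = 0.858, exact permutation p = 0.0476). Both groups overlapped for each of these genes. Mbl2 stood at -0.81 (SE 0.36, limma adjusted p = 0.858, exact permutation p = 0.0541), and without OE rat 24 at -0.51. By a fold beyond 1.3 with an unadjusted p under 0.05, 2 of 48 passed in OE vs. OC, C5 higher and Mbl2 lower (4.23% of all transcripts), and none in LE vs. LC (2.62%) or in the interaction (3.93%). The methods' t-test with the same adjustment passed none of the 48 in either ecdysterone comparison.

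**Figure D4:**
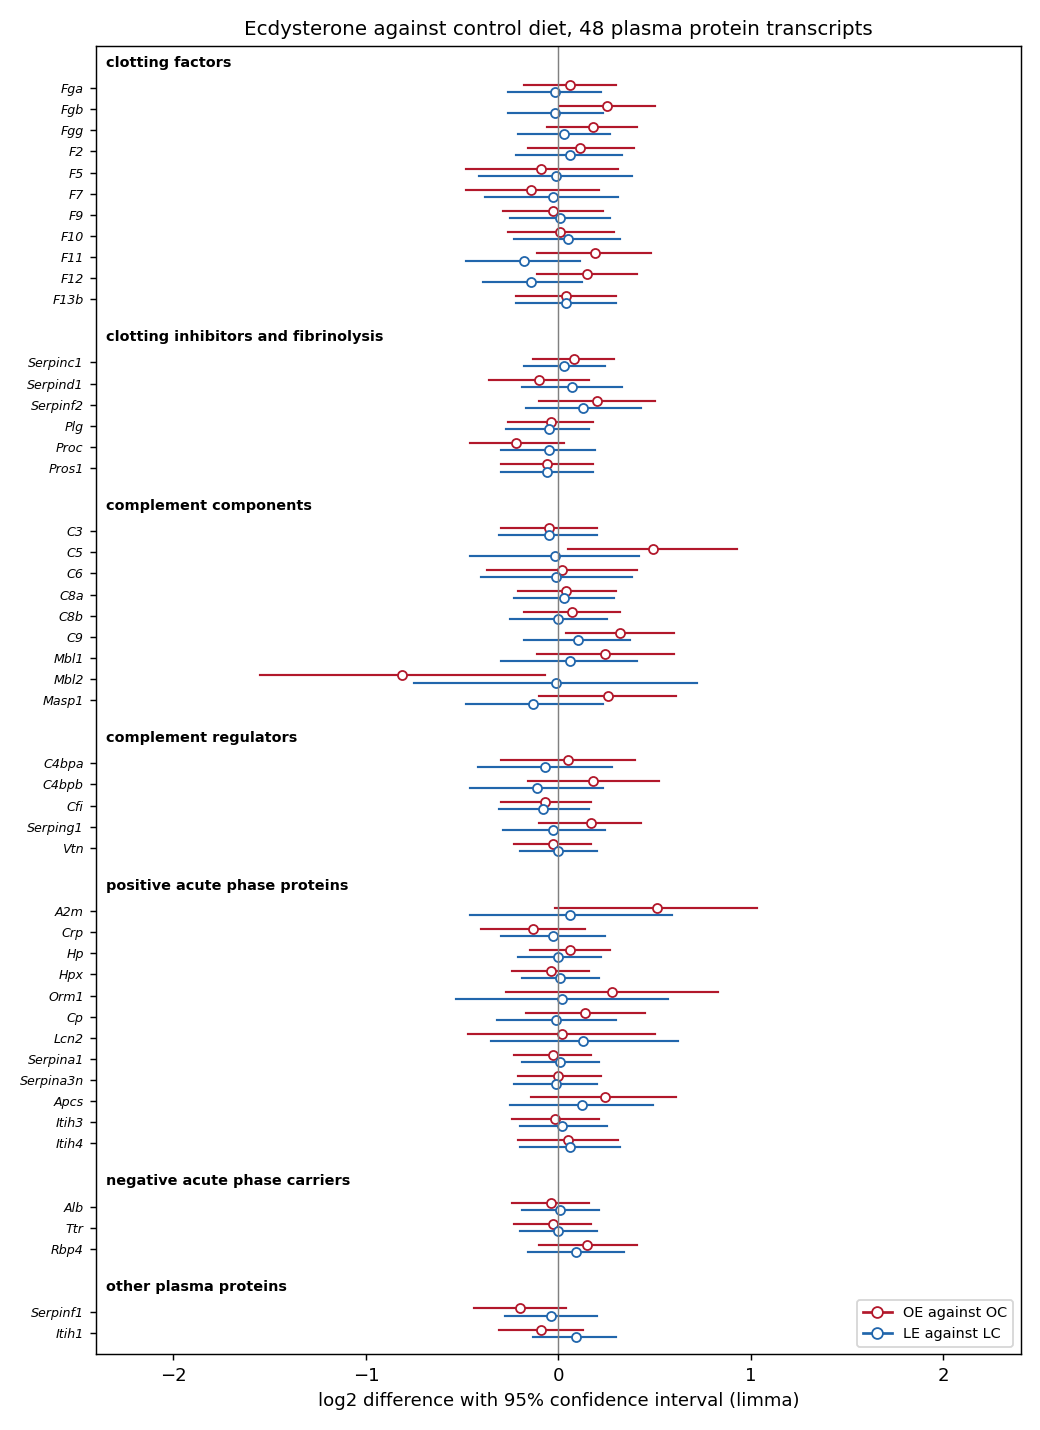
Log2 difference of the ecdysterone diet against the control diet for the 48 transcripts, grouped by role, with OE against OC in red and LE against LC in blue. Points are limma estimates and bars are 95% confidence intervals; no point is filled, since no adjusted p was under 0.05, and the differences run from -0.18 to 0.13 in lean rats and from -0.81 to 0.51 in obese rats.

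The effect of ecdysterone was not shown to differ between the genotypes for any of the 48. In the interaction test none of 48 had an adjusted or an unadjusted limma p under 0.05, where 0% and 3.93% of all transcripts did. The interaction of C5 was 0.51 (95% confidence interval -0.11 to 1.13) and that of F11 was 0.37 (-0.05 to 0.79).

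Rats of 1 group differed from each other in a shared way for some pairs of transcripts. After subtraction of the group means, Pearson's r over the 24 rats was computed for all 1128 pairs, with 100000 permutations within groups, and its median was 0.23. The highest, 0.98, was that of Hpx and Alb, whose signals lay at the upper end of the scale. Within the groups the r of Hpx and Alb was 0.96 in LC but 0.01 in LE. The adjusted p over these pairs was under 0.05 for 65, of which 61 had a positive r and 4 a negative one. Fgb and Fgg, chains of 1 protein, had r = 0.8 (Spearman's rho 0.92, permutation p = 4e-05 and 1e-05, adjusted 0.0113 and 0.00564). Without the 2 rats farthest from the median of Fgb, r was 0.77. Within the groups, with all rats kept, the r of Fgb and Fgg ran from 0.77 to 0.92.

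Mbl2 moved with Serpinf1 (r = 0.87, rho = 0.81, permutation p = 1e-05 and 6e-05, adjusted 0.00564 and 0.018). Without the 2 rats farthest from the median of Mbl2, r was 0.8. Mbl2 moved against Rbp4 (r = -0.79, rho = -0.77, permutation p = 0.00021 and 0.00023, adjusted 0.0192 and 0.0216). Without the same 2 rats, r was -0.73. Within groups of 6 the r of Mbl2 and Rbp4 ran from -0.89 to -0.56. The 1e-05 is the smallest p that the permutations can give. OE rat 24 had the lowest Mbl2 signal (13.16), the lowest Serpinf1 signal in OE (17.59) and the highest Rbp4 signal (19.05).

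**Figure D5:**
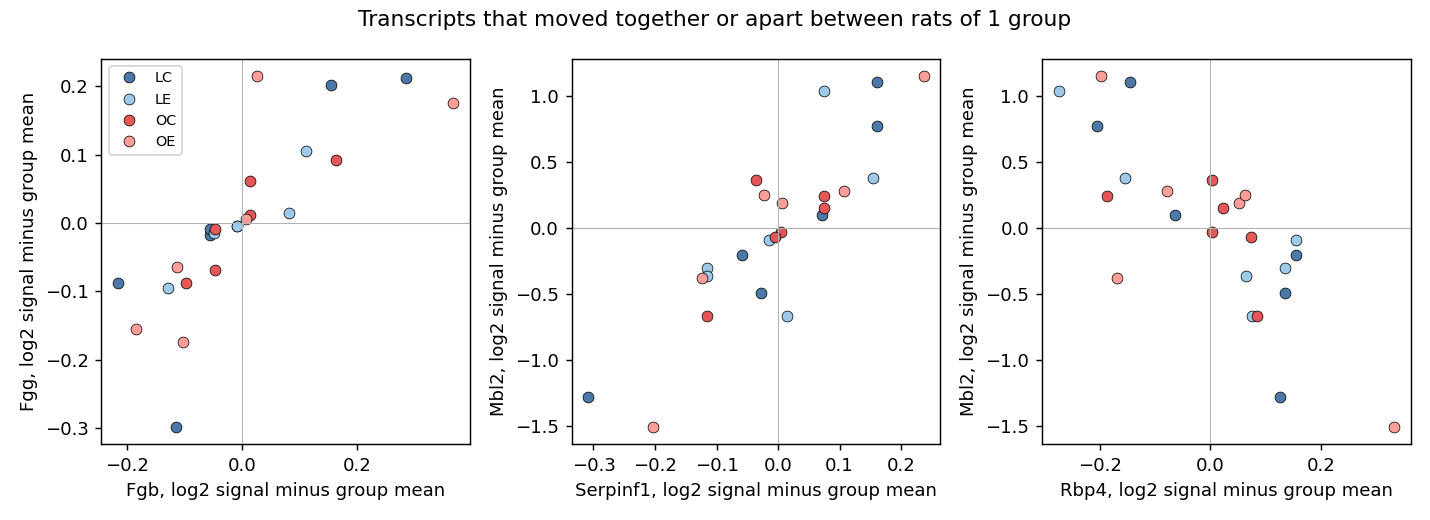
Deviation of each rat from its group mean, in log2 signal, for Fgg against Fgb, Mbl2 against Serpinf1 and Mbl2 against Rbp4, with 1 point per rat coloured by group. Points rise together in the first and middle panels (r = 0.8 and 0.87) and fall in the last (r = -0.79).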

How the data were processed

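Total RNA of 24 livers was measured on Clariom S rat arrays. The authors summarised probe sets with GCCN-SST-RMA in Expression Console 1.4, and the deposited values are log2 signals, already corrected for background and normalised; raw intensities were not used here, so those steps could not be repeated. The genome build of the probe annotation is not given in the sources used here. The deposited table also holds the authors' group means, fold changes and p-values, which were not used. The per-sample columns used were matched to samples by title, and those of the second deposited table by sample identifier.

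One model with 4 group means was fitted to the 23188 transcripts with limma 3.58.1 (R 4.3.3, lmFit and eBayes). P-values were adjusted by Benjamini-Hochberg across the whole array, with 0.05 as the threshold. Comparisons were OC vs. LC, OE vs. LE, genotype pooled over diets, LE vs. LC, OE vs. OC and the interaction. Single differences were also tested by exact permutation over all splits of 12 rats. The script was tested on simulated data. Named members were those that passed for genotype, those with the largest difference of each role, the 3 smallest p for ecdysterone and interaction, 8 well-known proteins, those without overlap and those with an outlying rat. Members and gene lists were chosen with earlier results of these data known. Promoter windows come from RefSeq (GRCr8) and covered 43 of 48 members. The number of arrays limits the precision. Alternatives covered the methods' t-test, other samples, normalisation, filters, variance moderation, array weights, the second deposited table, probe sets and single rats left out.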

Additional observations from a re-analysis of the deposited data

Results flagged for a closer look

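In each group of 6 rats the highest and lowest signal of each member was set against the others with Dixon's test at its 5% level. In 15 of 192 groups (7.81%) 1 rat stood apart, where chance gives about 5%. The values are log2 signals, and their cause was not tested.

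LC rat 6 was low for Cfi (18.41, next 18.7), Hpx (19.85, next 19.91), Itih3 (18.55, next 18.88) and Alb (19.85, next 19.91). LC rat 5 was low for Orm1 (14.86, next 16.11) and high for A2m (9.45, next 8.53), both acute phase proteins. LE rat 8 was high for C3 (19.13, next 18.98), C6 (15.76, next 15.26) and C4bpa (17.25, next 16.9), all of the complement system. OE rat 24 was low for F5 (13.48, next 14.49) and Itih1 (17.19, next 17.48).

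OC rat 14 was low for Serpinf2 (15.97, next 16.5) and Rbp4 (18.38, next 18.57). OC rat 16 was high for F7 (9.77, next 9.53), and LE rat 10 was low for Serpina1 (19.86, next 19.88).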

How the results depend on the processing

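Of 1436 values recomputed under 11 alternatives and with each of the 24 rats left out, 1379 kept their direction and side of the threshold or stayed within 1.5 times or 1 SD of the value reported, 31 no longer passed, 1 came to pass, 25 moved further and 0 of the values that had passed a test changed sign. With the methods' t-test, 1.1% of transcripts passed in OC vs. LC and 0.578% in OE vs. LE, against 2.59% and 2.11%, and Orm1 did not pass (adjusted p = 0.108 and 0.0709). With signals below the median left out, which leaves fewer transcripts tested, 5.96% passed in OC vs. LC, 5.15% in OE vs. LE and 13.6% for pooled genotype. In OE vs. LE, 6 members passed with that filter and 5 with a variance trend and robust moderation. By fold and unadjusted p, 1 member passed in OE vs. OC with that moderation, against 2, and 1 in the interaction with array weights, against 0. When 2 groups were fitted alone A2m passed in OC vs. LC (adjusted p = 0.0317) and Pros1 did not (0.0813, and 0.0882 in OE vs. LE).

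With 1 rat left out, the members that passed numbered 2 to 4 in OC vs. LC, 2 to 5 in OE vs. LE and 7 to 11 for pooled genotype, and of all transcripts 2 to 2.99%, 1.42 to 2.2% and 5.79 to 6.53% passed. By fold and unadjusted p, members numbered 6 to 8 in OC vs. LC and 7 to 8 in OE vs. LE. With all rats kept, 10.5% and 10.2% of all transcripts passed these criteria. Members numbered 0 to 3 in OE vs. OC and 0 to 2 in the interaction. There 4.23% and 3.93% of all transcripts passed with all rats kept. The median difference of the members ran from -0.15 to -0.06 in OC vs. LC and lay near 0, with changes of sign, in LE vs. LC (-0.04 to 0.02), OE vs. OC (-0.01 to 0.08) and the interaction (-0.01 to 0.06). The methods' t-test and the fit of 2 groups alone have no pooled comparison. Under the other 9 alternatives and with each rat left out, F11, Proc, Pros1, C6, Crp, Orm1 and Itih4 passed for pooled genotype. Counting rows of identical values once, chosen after seeing the data, changed none of these calls. Apart from the cases given, the cause of a change was not tested. No paired analysis was possible because the replicate numbers run from 1 to 24 and are shared by no groups.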
